A study of Homo sapiens with 12 samples.

Results

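The AP-1 family was followed here through its 7 FOS and JUN genes, FOS, FOSB, FOSL1 and FOSL2 on one side and JUN, JUNB and JUND on the other, which were chosen by symbol from 26485 gene symbols counted. All 7 were in the count files of all 12 libraries, and all 7 had enough reads to be tested. The cells were DLD1, an established human colon adenocarcinoma line, sequenced as poly(A) RNA after 1 h. They received 10 µM of TCDD, a dioxin and the prototypical agonist of the aryl hydrocarbon receptor (AHR), 10 µM of kynurenine (Kyn in the plots), a tryptophan metabolite described as an endogenous AHR agonist, or 10 µM of CH223191 (CH in the plots), a synthetic AHR antagonist, and the control cells received DMSO, the vehicle of such compounds. Each of the 4 groups had 3 libraries of this 1 line. Whether the 3 were grown separately is not in the labels. The p-values therefore set differences between groups against the spread of these libraries, which may be technical variation.

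AP-1 is a dimer of basic leucine zipper proteins that binds the DNA element TGACTCA or the related TGACGTCA. JUN proteins pair with each other or with FOS proteins, whereas FOS proteins need a partner from outside their own group, commonly a JUN protein. The mixture of dimers in a cell thus follows which members it makes. FOS, FOSB, JUN and JUNB are immediate-early genes, transcribed within minutes of a growth or stress signal and soon silent again. FOSL1 (FRA1) and FOSL2 (FRA2) usually follow later and last longer, and JUND is commonly made at a steady level. In carcinoma cells with an active RAS pathway, FOSL1 is a well-known AP-1 component.

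The stretches before the starts of 5 of these genes are shown as background, and no element in them was tested against the changes below. A promoter sequence was matched for 6 of the 7 members and FOSL1 was not among them. FOSB is not printed, since its values were too low to compare. The sequences are from RefSeq (GRCh38.p14), 5′ to 3′ on the strand of the gene, from base -250 to base -57 before its start. Capitals mark the AP-1 and CRE elements TGACTCA, TGACATCA and TGACGTCA, the CRE core TGACG and the AHR core element GCGTG, each searched on both strands. The core TGACG also lies inside TGACGTCA, and on its reverse strand it reads CGTCA, as GCGTG reads CACGC.
FOS (chr14:75278578-75278771, plus strand): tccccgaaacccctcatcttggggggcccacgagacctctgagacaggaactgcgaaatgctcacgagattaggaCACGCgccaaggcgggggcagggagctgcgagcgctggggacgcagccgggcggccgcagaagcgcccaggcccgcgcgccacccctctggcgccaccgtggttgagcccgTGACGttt
FOSL2 (chr2:28392608-28392801, plus strand): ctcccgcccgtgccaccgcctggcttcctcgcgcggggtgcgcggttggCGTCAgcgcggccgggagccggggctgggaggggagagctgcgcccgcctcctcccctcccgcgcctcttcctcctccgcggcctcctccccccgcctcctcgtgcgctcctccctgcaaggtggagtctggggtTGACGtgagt
JUN (chr1:58784104-58784297, minus strand): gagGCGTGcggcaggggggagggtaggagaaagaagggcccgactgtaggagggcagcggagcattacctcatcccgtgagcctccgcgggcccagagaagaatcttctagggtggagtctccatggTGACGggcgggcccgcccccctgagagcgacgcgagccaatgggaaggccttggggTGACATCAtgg
JUNB (chr19:12791236-12791429, plus strand): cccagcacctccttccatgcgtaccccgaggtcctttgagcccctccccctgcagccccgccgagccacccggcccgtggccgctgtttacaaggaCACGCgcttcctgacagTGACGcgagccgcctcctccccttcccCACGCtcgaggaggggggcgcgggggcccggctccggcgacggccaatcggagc
JUND (chr19:18281679-18281872, minus strand): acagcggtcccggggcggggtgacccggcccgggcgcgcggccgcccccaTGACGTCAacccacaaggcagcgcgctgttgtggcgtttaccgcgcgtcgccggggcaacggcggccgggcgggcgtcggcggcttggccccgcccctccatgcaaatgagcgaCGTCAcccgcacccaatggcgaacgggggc

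In the 250 bases before each start, the core TGACG was found in the FOS, FOSB, FOSL2, JUN, JUNB and JUND promoters, and 21.7% of all 27305 promoters of this length held it. FOS had it from -64 to -60 and FOSL2 from -66 to -62. JUN had TGACATCA from -67 to -60, an element that 2.45% of promoters held and through which JUN is known to bind its own gene. JUND had the whole TGACGTCA from -200 to -193, held by 1.77% of promoters. The full element TGACTCA, in 4.16% of promoters, and the CArG box, the site of serum response factor, in 1.14%, were not found in these windows. The AHR core GCGTG, in 31.9% of promoters, lay at 1 position in FOS and JUN and at 3 in JUNB, of which the one from -24 to -20 is past the printed stretch, and these letters were not found in the FOSB, FOSL2 and JUND windows. Each match, or lack of one, is a description of letters in a short window, and bases outside it were not searched.

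On hg38, FOS lies on chromosome 14 at 75278826 to 75282230, FOSL1 on chromosome 11 at 65892049 to 65900573, FOSL2 on chromosome 2 at 28392448 to 28417317 (the RefSeq start used for its printed sequence lies inside this range) and JUN on chromosome 1 at 58776845 to 58784048. Chromosome 19 carries FOSB at 45467995 to 45475179 and the single-exon genes JUNB, at 12791486 to 12793315, and JUND, at 18279694 to 18281622. JUNB shares 259 exonic bases with HOOK2 on the opposite strand. Whether counting used strand is not given in the sources used here, so how reads from those bases were counted is not known. In each library 2.47 to 2.56% of all reads were set apart as ambiguous, and how many of them came from these bases is not known either.

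Libraries held 21397703 to 28247146 reads on named genes. The compounds acted on the AHR target CYP1A1, which averaged 428 ± 15.9 CPM (reads scaled to library depth) with TCDD, 10.1 ± 1.01 with kynurenine and 0.520 ± 0.188 with CH223191, against 3.22 ± 0.142 in DMSO (SD, n = 3 each). Kynurenine replicate 1 stood apart from its group, with a variance of counts relative to Poisson noise of 4.94 and 4.90 against the other 2 and 1.80 between those. Against DMSO replicates 1, 2 and 3 it had 4.19, 6.65 and 4.67, and kynurenine replicates 2 and 3 had 2.06 to 4.62. This measure thus did not separate the kynurenine group from DMSO. DMSO replicate 1, in the group that all 3 compounds share as control, also differed more from its group, at 4.17 and 3.31 against the other 2 and 2.68 between those. Without it 851 of all genes were called with TCDD over DMSO, in place of 1599. The epithelial markers EPCAM, KRT8, KRT18 and CDH1 were high and the 7 listed summed to 8352 to 9334 CPM, while KRT20 (2.52 to 3.81 CPM) and VIL1 (1.99 to 2.97 CPM), markers of differentiated colon cells, were low. Summed markers of fibroblasts (0.218 to 0.692 CPM) and endothelium (0.822 to 1.69 CPM) were near 0, those of immune cells reached 3.11 to 12.4 CPM, mostly LYZ, and DCN and KDR had no read in any library. Among the epithelial markers CDX2, an intestinal transcription factor, averaged 162 CPM with TCDD, 112 with kynurenine and 94.7 with CH223191, against 122 in DMSO, and its part in the results below was not tested.

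In the control cells the FOS side was made up mainly of FOSL1 and FOSL2, and the immediate-early FOS and FOSB were low. In DMSO, FOS had 4.42, 4.19 and 4.07 CPM and FOSB had 0.648, 0.868 and 0.918 CPM, on 17 to 25 reads a library. FOSL1 had 56.2, 51.2 and 52.5 CPM and FOSL2 had 56.4, 56.3 and 56.0 CPM. All 3 JUN genes were in the same range, JUN at 48.7, 47.7 and 46.7 CPM, JUNB at 64.8, 64.6 and 64.5 CPM and JUND at 62.9, 59.5 and 63.7 CPM.

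Per kilobase of exons, which allows genes to be compared, the order of the levels in DMSO was JUNB (35.3 ± 0.0729 CPM per kilobase), JUND (32.2 ± 1.18), FOSL1 (28.2 ± 1.38), JUN (13.2 ± 0.272), FOSL2 (7.85 ± 0.0278), FOS (1.33 ± 0.0558) and FOSB (0.146 ± 0.0258; SD, n = 3 each). Neighbours in this order did not overlap in DMSO or with kynurenine. JUNB and JUND overlapped with TCDD (35.8 ± 2.22 and 32.5 ± 1.00 CPM per kilobase) and with CH223191 (33.0 ± 0.904 and 32.7 ± 1.59), so their order there is not settled. The order of the means was the same in all 4 groups. With the length of the longest transcript in place of all exons it changed at 1 place, with FOSL1 (32.6 CPM per kilobase) beside JUND (32.5) in TCDD cells.

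**Figure D1:**
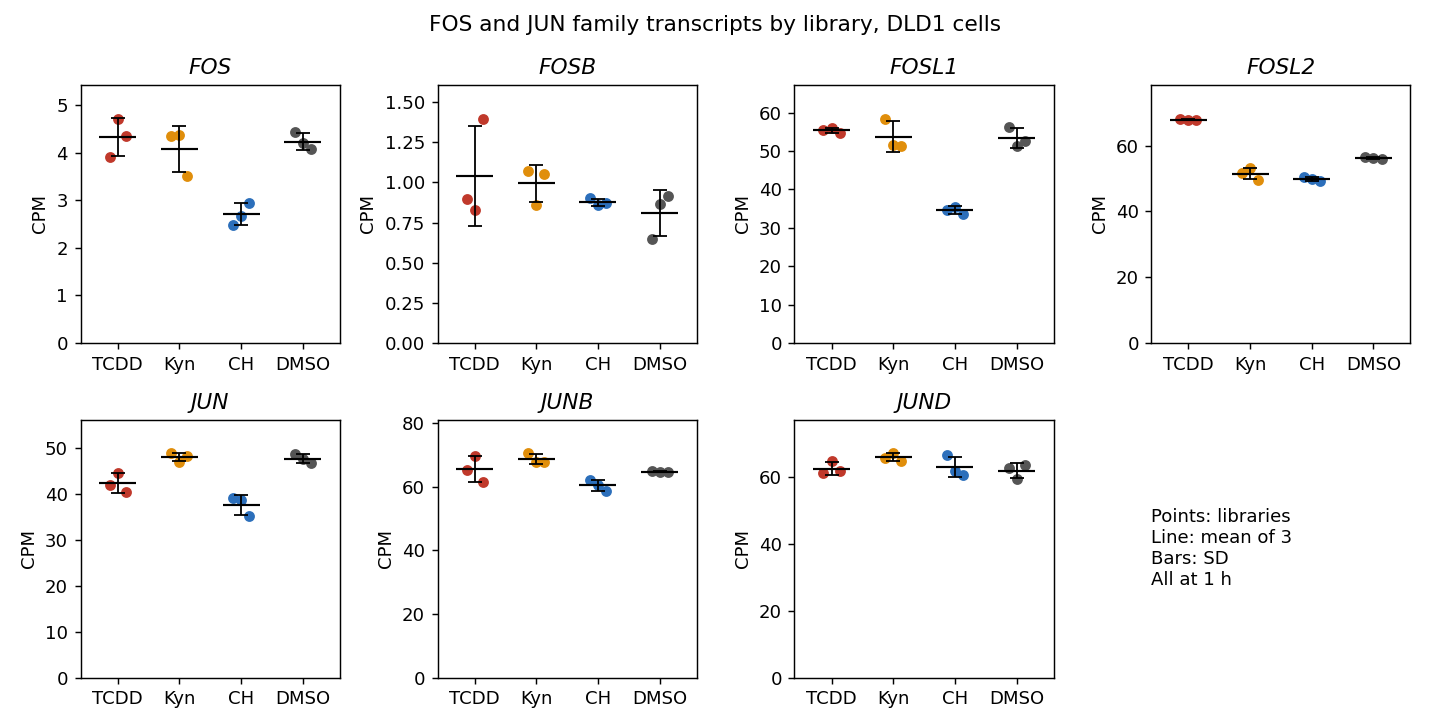
CPM of the 7 genes (y axes start at 0 and differ between genes) in the 3 libraries of each group (points), with the mean (line) and SD (bars), n = 3. FOSL2 with TCDD lies above all other libraries at 67.7 to 68.2 CPM, and FOS and FOSL1 with CH223191 lie below all others.

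A joint test of the 4 groups asked which members differed at all. It called 5 of the 7, FOSL1 (adjusted p = 2.3e-13), FOSL2 (1.0e-10), JUN (4.3e-07), FOS (2.3e-04) and JUNB (0.0074), while 43.6% of all genes tested were called. FOSB (0.60) and JUND (0.28) did not pass, although JUND did (0.049) once trends with GC content and transcript length were removed. In bulk RNA, fewer cells making a transcript and less of it per cell cannot be told apart, which holds for every value below.

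TCDD was set against DMSO to ask what a strong AHR agonist does to the family within 1 h. It moved 2 of the 7 members, FOSL2 up and JUN down, and 11.7% of all genes were called (5.91% higher and 5.83% lower). The same 2 members did not overlap between the groups, as for 27.8% of all genes (14.2% higher and 13.6% lower). The median log2 fold change was 0.03 over the 7 members and 0.00084 over all genes. FOSL2, which codes for FRA2, had 68.2, 67.8 and 67.7 CPM with TCDD, against 56.4, 56.3 and 56.0 CPM in DMSO. All 3 TCDD libraries were above all 3 DMSO libraries, with a gap wider than the spread in either group. It rose 1.21-fold (log2 fold change 0.27 ± 0.0408 SE, adjusted p = 1.1e-05). Over the alternative settings its log2 fold change ranged from 0.26 to 0.28 and the highest adjusted p was 1.8e-04.

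JUN, the founding member and the strongest activator among the JUN proteins, had 42.0, 44.6 and 40.4 CPM with TCDD, against 48.7, 47.7 and 46.7 CPM in DMSO. The groups did not overlap. It fell by 0.17 ± 0.0483 SE on the log2 scale (adjusted p = 0.016). This call ended without TCDD replicate 1 (adjusted p = 0.059), TCDD replicate 3 (0.12) or DMSO replicate 1 (0.078).

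The other 5 members did not pass with TCDD. For FOS, with 3.91, 4.71 and 4.36 CPM, the 95% interval of the log2 fold change was -0.22 to 0.29, so that a change of about this size in either direction was not detectable at 96 to 108 reads a library. For FOSB it was -0.18 to 0.89, on 19 to 34 reads. The intervals were narrower for FOSL1 (-0.04 to 0.16), JUNB (-0.07 to 0.11) and JUND (-0.08 to 0.10).

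Kynurenine was set against DMSO to ask the same of the endogenous ligand. By edgeR 0 of 7 members passed, with 0 called by DESeq2, and 0.294% of all genes were called by edgeR (0.154% higher and 0.14% lower). An unadjusted edgeR p under 0.05 was reached by 2 members, FOSL2 and JUND (0.045 for JUND), and by 913 of the 13619 genes tested. FOSL2 had 51.6, 53.2 and 49.7 CPM with kynurenine, against 56.4, 56.3 and 56.0 CPM in DMSO, without overlap (log2 fold change -0.13 ± 0.0415 SE, unadjusted p = 0.0043, adjusted p = 0.34). Without kynurenine replicate 1 the value was -0.13 as well (adjusted p = 0.49).

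JUNB had 70.4, 67.6 and 67.6 CPM with kynurenine, against 64.8, 64.6 and 64.5 CPM in DMSO. JUND, whose protein is known to restrain growth in several cell types, had 65.9, 67.2 and 64.9 CPM with kynurenine, against 62.9, 59.5 and 63.7 CPM in DMSO. Neither gene overlapped between the groups, and neither passed (log2 fold changes 0.086 for JUNB and 0.090 for JUND, adjusted p = 0.76 and 0.74). In all 3 of 7 members did not overlap, 2 higher and 1 lower, and 11.4% of all genes tested did not (5.23% higher and 6.19% lower). The 95% intervals of the log2 fold change were -0.30 to 0.20 for FOS, -0.24 to 0.82 for FOSB, -0.08 to 0.11 for FOSL1 and -0.09 to 0.11 for JUN. They were 0.0020 to 0.18 for JUND, -0.0017 to 0.17 for JUNB and -0.21 to -0.04 for FOSL2, without adjustment for the number of genes.

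CH223191 was set against DMSO to ask what the antagonist does without added agonist. It lowered 4 of the 7 members, FOS, FOSL1, FOSL2 and JUN, and raised 0. Of all genes tested 32.8% were called (15.9% higher and 16.9% lower), a larger share than with TCDD, and the members' count is to be read against it. The median log2 fold change was -0.17 over the members and 0.00097 over all genes.

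FOSL1, the FRA1 gene, had 34.7, 35.5 and 33.6 CPM with CH223191, against 56.2, 51.2 and 52.5 CPM in DMSO. Every CH223191 library was below every other library of the series. It fell by 0.62 ± 0.0510 SE on the log2 scale (adjusted p = 5.1e-12), with -0.65 to -0.58 over the alternative settings. FOS had 2.48, 2.68 and 2.94 CPM with CH223191, on 69, 75 and 64 reads, against 4.42, 4.19 and 4.07 CPM in DMSO, on 116, 116 and 111 reads. The groups did not overlap, and FOS fell by 0.65 ± 0.135 SE (adjusted p = 2.6e-04). The FOS interval, -0.93 to -0.38, is wide at this depth.

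JUN had 39.2, 38.6 and 35.1 CPM with CH223191, against 48.7, 47.7 and 46.7 CPM in DMSO. It fell by 0.34 ± 0.0486 SE without overlap (adjusted p = 1.1e-06). FOSL2 had 50.6, 49.8 and 49.2 CPM with CH223191, against 56.4, 56.3 and 56.0 CPM in DMSO, and fell by 0.17 ± 0.0418 SE (adjusted p = 0.0015). All 4 calls held in each alternative that tested them, each library left out in turn included, and at a minimum of 5 CPM FOS was not tested.

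JUNB had 62.0, 60.4 and 58.7 CPM with CH223191, against 64.8, 64.6 and 64.5 CPM in DMSO. The groups did not overlap, which made 5 of 7 members lower without overlap, against 43.4% of all genes (21.3% higher and 22.1% lower), and JUNB did not pass (log2 fold change -0.10, adjusted p = 0.086), although it did with GC and length trends removed (-0.12, 0.017). HOOK2, which shares exonic bases with JUNB, averaged 38.5 ± 0.907 CPM with CH223191 and 36.7 ± 1.56 CPM in DMSO (SD, n = 3 each; log2 fold change 0.07, adjusted p = 0.32). The 95% interval was -0.06 to 0.12 for JUND and -0.44 to 0.65 for FOSB.

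**Figure D2:**
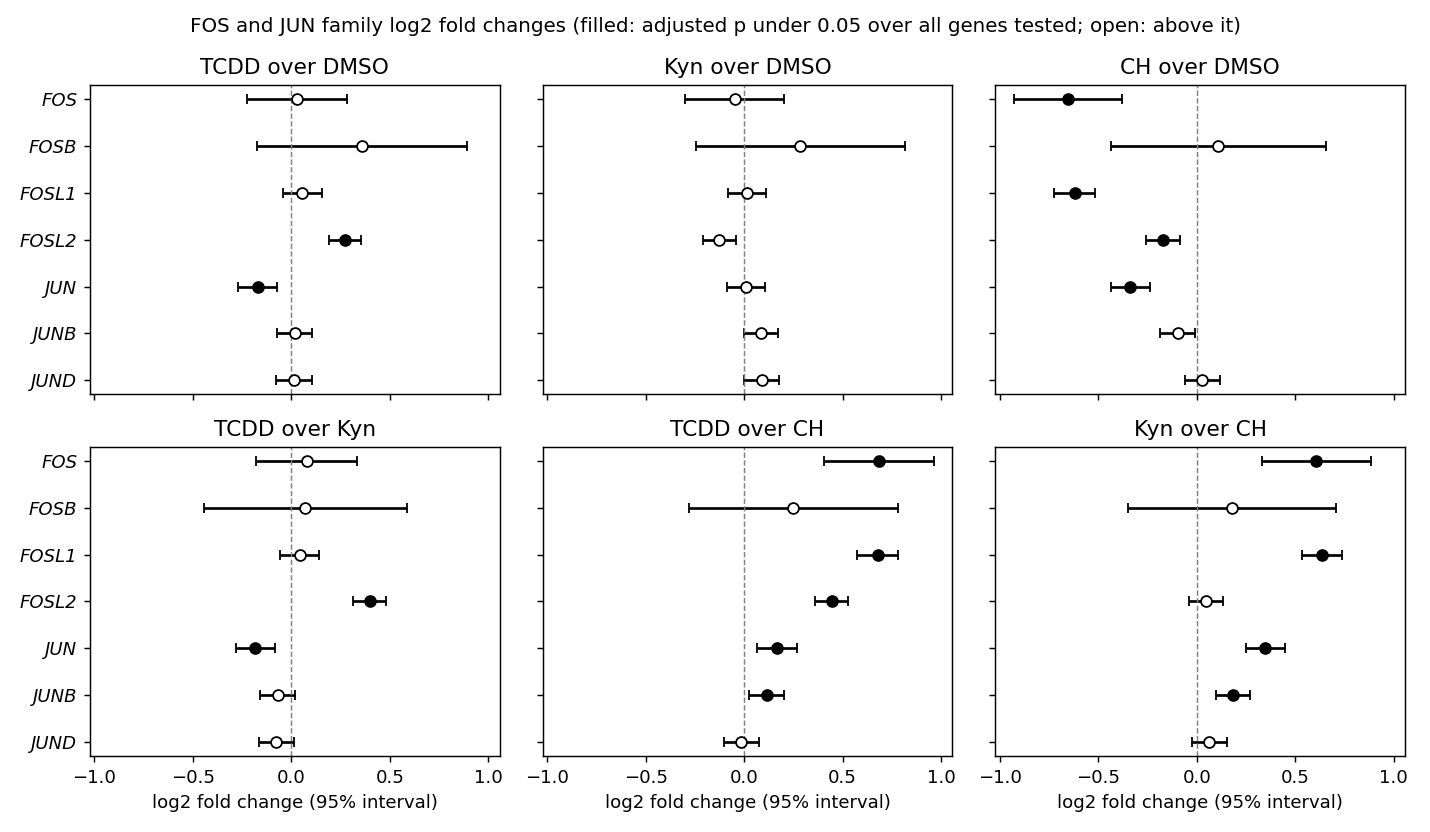
Log2 fold changes of the 7 genes (x axis) with 95% intervals in each of the 6 comparisons, the first-named group over the second. Filled points passed an adjusted p of 0.05. FOSL2 is to the right of 0 with TCDD over each other group, FOS and FOSL1 are to the left with CH223191 over DMSO, and the FOSB intervals cross 0 throughout.

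The compounds were then set against each other in the same model, as direct tests of their differences. The comparisons share groups and are not independent of one another. TCDD over kynurenine separated the same FOSL2 and JUN that moved with TCDD, 2 of 7 against 9.19% of all genes (5.1% higher and 4.09% lower). These 2 were also the members without overlap, against 26% of all genes (13.3% higher and 12.7% lower). FOSL2 was 1.32-fold higher with TCDD (log2 fold change 0.40 ± 0.0413 SE, adjusted p = 5.9e-09), with 67.7 to 68.2 CPM, against 49.7 to 53.2 CPM with kynurenine. JUN was lower by 0.18 ± 0.0484 SE (adjusted p = 0.013), with 40.4 to 44.6 CPM under TCDD, against 47.0 to 48.8 CPM under kynurenine. The JUN call ended without TCDD replicate 3 (0.11) or kynurenine replicate 1 (0.051). For FOSL1 the 95% interval of this difference was -0.06 to 0.14 and for FOS -0.18 to 0.34.

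With TCDD over CH223191, 5 of 7 members were higher and 0 lower, while 37.1% of all genes were called (19% higher and 18.1% lower). For 4 of them the libraries did not overlap, against 47.3% of all genes (23.8% higher and 23.5% lower). FOSL1 (log2 fold change 0.68 ± 0.0514 SE, adjusted p = 4.0e-13), FOS (0.68 ± 0.138, 1.5e-04) and FOSL2 (0.45 ± 0.0416, 8.0e-11) were higher. JUN, which fell with both compounds over DMSO, was higher with TCDD than with CH223191 (0.17 ± 0.0499, 0.0083), and this call ended without TCDD replicate 2 (0.075) or CH223191 replicate 3 (0.069). The JUNB call (0.12 ± 0.0442, 0.039), with overlapping libraries, ended under 7 of 20 alternatives, which were library totals alone (0.087), no low-count filter (0.065), DESeq2 (0.054) and the fits without TCDD replicate 1 (0.085), TCDD replicate 2 (0.30), CH223191 replicate 2 (0.096) or CH223191 replicate 3 (0.13). HOOK2 went the other way, with a mean of 33.0 CPM under TCDD and 38.5 CPM under CH223191 (log2 fold change -0.22, adjusted p = 0.0011), and the part of shared reads in the JUNB values was not tested.

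With kynurenine over CH223191, 4 of 7 members were higher and 0 lower, against 33% of all genes called (16.6% higher and 16.4% lower). The same 4 did not overlap, against 43.5% of all genes (21.7% higher and 21.9% lower). These were FOSL1 (log2 fold change 0.64 ± 0.0511 SE, adjusted p = 2.9e-12), FOS (0.61 ± 0.137, 6.9e-04), JUN (0.35 ± 0.0486, 6.9e-07) and JUNB (0.18 ± 0.0436, 0.0012). JUNB had 67.6 to 70.4 CPM with kynurenine, against 58.7 to 62.0 CPM with CH223191, without overlap. HOOK2 went the other way here too, with 34.3 ± 1.38 CPM under kynurenine and 38.5 ± 0.907 CPM under CH223191 (SD, n = 3 each; log2 fold change -0.17, adjusted p = 0.011), and the part of shared reads was not tested. All 4 calls held in each alternative that tested them, also without kynurenine replicate 1. FOSL2 did not pass, with a 95% interval of -0.04 to 0.13.

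Because both FOS-like genes are counted in the same library, their ratio does not depend on how libraries were scaled. FOSL2 reads per FOSL1 read were 1.21 to 1.24 with TCDD, 0.883 to 1.03 with kynurenine and 1.40 to 1.46 with CH223191, against 1.00 to 1.10 in DMSO. The ratio was thus above every DMSO library with TCDD, where FOSL2 rose, and with CH223191, where FOSL1 fell more than FOSL2. JUN made up 24.7 to 25.0% of the JUN, JUNB and JUND reads with TCDD, 25.8 to 26.7% with kynurenine and 22.7 to 24.0% with CH223191, against 26.7 to 27.8% in DMSO. Per kilobase, the summed JUN genes stood at 1.92 to 2.06 times the summed FOS genes with TCDD, 2.17 to 2.37 times with kynurenine and 2.83 to 3.003 times with CH223191, against 2.08 to 2.19 times in DMSO. This ratio was below every DMSO library with TCDD, above every one with CH223191, and overlapped with kynurenine. With 3 libraries a group an exact permutation test of such ratios cannot go below a two-sided p of 0.10, and they are given as a description.

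**Figure D3:**
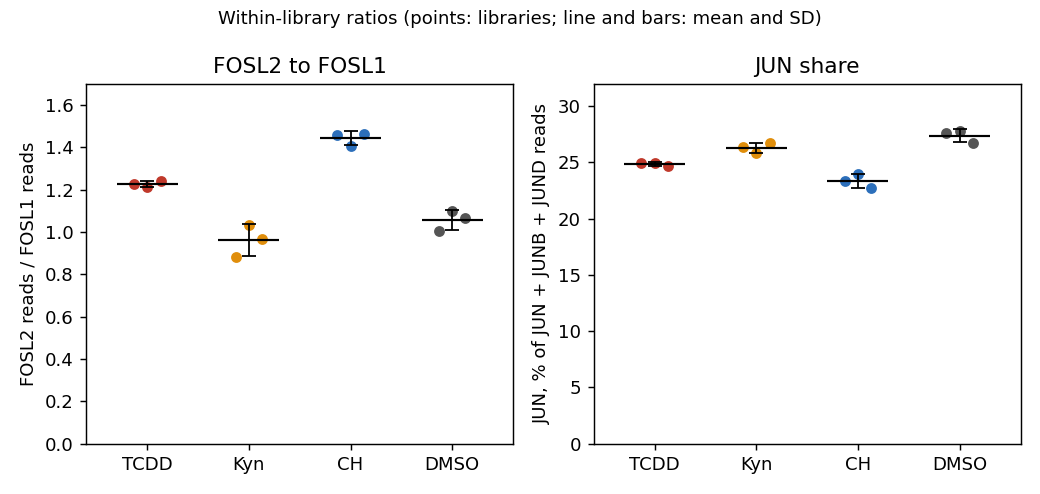
Left, FOSL2 reads per FOSL1 read in each library. Right, JUN as a percentage of the JUN, JUNB and JUND reads. Points are libraries, lines and bars the mean and SD of 3, and both y axes start at 0. The CH223191 libraries have the highest FOSL2 to FOSL1 ratios, 1.40 to 1.46, and the lowest JUN shares, 22.7 to 24.0%.

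Proteins that can pair with FOS or JUN were read from a list of 15 dimer partners, 13 of them tested. The shares of all genes called over DMSO were, as above, 11.7% with TCDD, 0.294% with kynurenine and 32.8% with CH223191. With TCDD 1 of the 13 rose and 1 fell, both of them small MAF proteins, which lack an activation domain, MAFG (log2 fold change 0.21 ± 0.0463 SE, adjusted p = 0.0026) and MAFK (-0.24, 0.011). The MAFK call ended without TCDD replicate 3 (0.057), DMSO replicate 1 (0.17) or DMSO replicate 3 (0.050). With kynurenine 0 of 13 passed. With CH223191 5 of 13 rose and 3 fell, against 15.9% of all genes higher and 16.9% lower, with a list median of 0.07. JDP2, a JUN dimer partner that represses AP-1 sites, averaged 48.3 ± 0.509 CPM with CH223191 and 24.2 ± 0.745 CPM in DMSO (SD, n = 3 each; log2 fold change 0.996, adjusted p = 4.6e-18). ATF4, the main transcription factor of the integrated stress response, averaged 523 ± 10.5 CPM with CH223191 and 275 ± 12.8 CPM in DMSO (0.93 ± 0.0362 SE, 2.2e-21). MAFK (-0.51) and MAFG (-0.25) fell.

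Factors that drive FOS and JUN transcription were read from a list of 12 serum response and CRE factors. Of these, 1 rose and 1 fell with TCDD, 0 passed with kynurenine, and 1 rose and 3 fell with CH223191, with a list median of 0.05. The counts with TCDD and CH223191 are near the shares of all genes called, 11.7% and 32.8%, and are no result about the list. SRF, the serum response factor that binds the FOS promoter, had a log2 fold change of -0.06 with TCDD (adjusted p = 0.39) and fell by 0.18 with CH223191 (8.2e-04). ELK1, its ternary complex partner, fell by 0.23 with CH223191 (1.2e-04). It also fell with TCDD (-0.15, 0.024), where the call ended with GC and length trends removed (0.081) and without TCDD replicate 2 or 3 or DMSO replicate 1 or 3 (highest 0.16). ELK4, another such partner, rose by 0.14 with TCDD (0.045) and by 0.12 with CH223191 (0.047), and these calls ended under 10 and 6 alternatives (highest 0.65 and 0.20). MKL2, a coactivator of SRF, had 0.16 with TCDD (0.057), which passed under 6 alternatives (lowest 0.024), and 0.11 with CH223191 (0.11).

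The kinases that phosphorylate JUN and their regulators were listed with 23 genes of the JNK and p38 pathways, 22 of them tested. With TCDD 0 rose and 3 fell, with kynurenine 0 passed, and with CH223191 5 rose and 4 fell (list median -0.04). Of all genes 11.7%, 0.294% and 32.8% were called in these comparisons, and the list's counts are not far from those shares. MAP3K11, a kinase at the top of the JNK cascade, fell with TCDD (-0.21, adjusted p = 2.5e-04) and with CH223191 (-0.22, 2.7e-05). MAP2K4, which phosphorylates JNK, and MAP2K3, which phosphorylates p38, fell with CH223191 (-0.19 and -0.27), and MAP2K6, also a p38 activator, rose there to 1.84 ± 0.19 CPM, against 1.07 ± 0.219 CPM in DMSO (SD, n = 3 each; 0.78, 0.0049).

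Genes known as AP-1 targets were listed with 28 members, of which 9 were under the low-count filter. Among these were all 6 matrix metalloproteinases listed, including the collagenase MMP1, whose AP-1 site is a classical one, and the highest count of such a gene in any library was 12 reads. Of the 19 tested, 1 rose and 4 fell with TCDD (list median -0.06), 0 passed with kynurenine, and 4 rose and 8 fell with CH223191 (list median -0.08). Of all genes 5.91% were higher and 5.83% lower with TCDD, 0.294% were called with kynurenine, and 15.9% were higher and 16.9% lower with CH223191. LIF, a cytokine of the IL6 family, averaged 62.5 ± 4.07 CPM with TCDD (log2 fold change 0.38, adjusted p = 5.0e-07) and 35.9 ± 1.96 CPM with CH223191 (-0.42, 2.8e-08), against 48.2 ± 0.752 CPM in DMSO (SD, n = 3 each). AREG, a ligand of the EGF receptor, fell with CH223191 (-0.63, 7.6e-12) and had 0.09 with TCDD (0.23). CCND1, the cyclin of G1 phase, fell with both, by 0.21 with TCDD (1.7e-05) and by 0.25 with CH223191 (1.2e-07). VEGFA, the angiogenic growth factor, rose 2.08-fold with CH223191 to 122 ± 2.78 CPM, against 58.4 ± 0.242 CPM in DMSO (SD, n = 3 each; 1.06, 3.2e-22). With TCDD it fell by 0.14 (0.020), a call that ended without TCDD replicate 1 or 3 or DMSO replicate 1 or 3 (highest 0.12).

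FOS and JUN messages carry AU-rich elements through which they decay fast, and 11 binding proteins of such and related elements were listed. With TCDD 1 rose and 4 fell (list median 0.02), with kynurenine 0 passed, and with CH223191 2 rose and 4 fell (list median -0.06). The shares of all genes called were 11.7%, 0.294% and 32.8%. KHSRP, a decay factor, fell with TCDD (-0.16, adjusted p = 5.2e-04) and with CH223191 (-0.13, 0.0015). ELAVL1 (HuR), which stabilises such messages, fell with CH223191 (-0.18, 5.9e-05) and with TCDD (-0.14, 0.0057), the last call ending without DMSO replicate 1 (0.063). TIAL1, a translational repressor, fell with CH223191 (-0.16, 0.0011). ZFP36L1, a decay factor, fell by 0.12 with TCDD (0.015) and rose by 0.09 with CH223191 (0.046), calls that ended under 3 and 7 alternatives (highest 0.086 and 0.21).

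The family was also set beside 29 other immediate-early genes, 28 of them tested. With TCDD 1 rose and 5 fell (list median -0.07), with kynurenine 2 rose and 1 fell, and with CH223191 4 rose and 14 fell (list median -0.17, against 0.00097 over all genes). Of all genes 11.7% were called with TCDD, 0.294% with kynurenine, and with CH223191 15.9% were higher and 16.9% lower. CYR61, a matrix protein, averaged 59.8 ± 2.90 CPM with CH223191 and 142 ± 3.67 CPM in DMSO (SD, n = 3 each; log2 fold change -1.25, adjusted p = 2.5e-23), and CTGF, a related protein, fell with CH223191 (-1.02, 2.5e-17) and with TCDD (-0.32, 3.1e-05). IER3, a survival gene, rose with TCDD (0.38, 1.3e-09) and fell with CH223191 (-0.46, 6.7e-12). ID1, a dominant-negative helix-loop-helix protein, rose with CH223191 (0.47, 5.5e-13). With kynurenine CYR61 fell (-0.17, 0.028) and ID1 rose (0.18, 0.0094). The CYR61 call ended under 7 alternatives (highest 0.22), and the ID1 call without kynurenine replicate 3 (0.060) or DMSO replicate 1 (0.076).

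**Figure D4:**
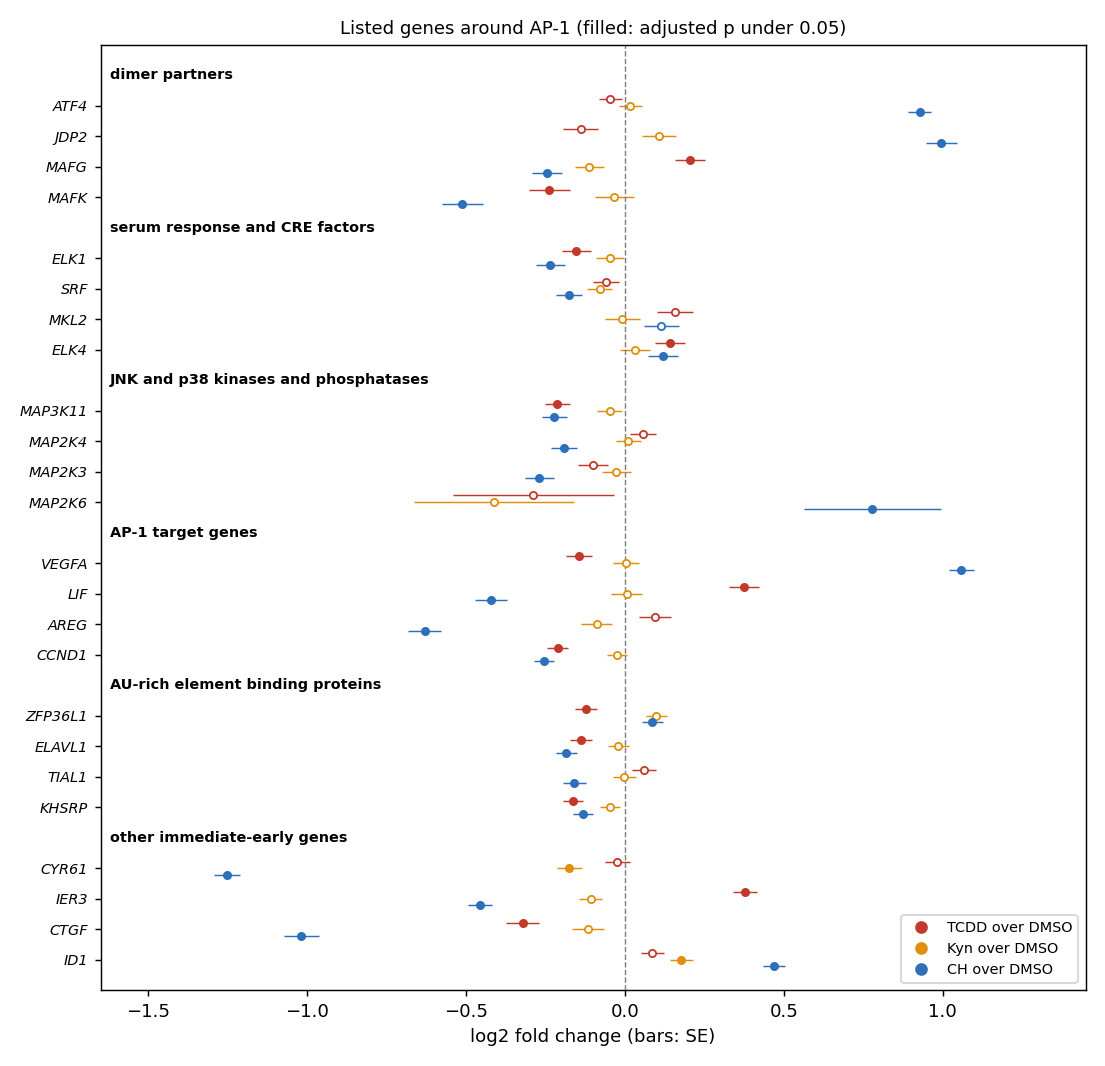
Log2 fold changes (x axis) over DMSO of the 4 genes with the smallest joint p in each of 6 lists, by compound (colours), with SE as bars. Filled points passed an adjusted p of 0.05. ATF4, JDP2 and VEGFA lie near 1 with CH223191, and LIF and IER3 lie on opposite sides of 0 with TCDD and with CH223191.

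Likeness was measured as the Pearson correlation of log2 CPM over the 12 libraries with each of 10243 genes of at least 5 CPM. It is a description, since the libraries share groups and depth. FOSL2 was most like PIM1 (r = 0.99), a serine/threonine kinase, PPP1R15A (0.98), a phosphatase subunit of the stress response, and LGR5 (0.98), a receptor of intestinal stem cells. PIM1 averaged 44.4 ± 0.819 CPM with TCDD, 23.6 ± 0.826 CPM with kynurenine and 20.4 ± 1.24 CPM with CH223191, against 29.4 ± 1.22 CPM in DMSO (SD, n = 3 each), the same order of groups as FOSL2. FOSL1 was most like POFUT2 (0.99), SERTAD1 (0.99) and SH3GL1 (0.98), each lowest with CH223191. FOS was most like METTL3 (0.97), RRP8 (0.97) and STRA13 (0.96), JUN like U2AF2 (0.97), GNA11 (0.97) and TMEM201 (0.965), and JUNB like BAIAP2 (0.93), KCNK1 (0.91) and SH3BP1 (0.90). For FOSB and JUND the highest values were lower, 0.83 with NFX1 and 0.78 with DMWD. Within the family FOS and FOSL1 were at 0.93, JUN and JUNB at 0.82, JUN and FOSL1 at 0.80, and JUN and FOSL2 at 0.079.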

How the data were processed

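Poly(A) RNA of 12 DLD1 libraries was analysed from read counts per gene symbol. The deposited values are raw counts that the authors made with Trim Galore, STAR 2.7.2b, SAMtools 1.9 and HTSeq on hg38, per the submitters' processing notes, while the labels' protocol names STAR 2.5.2b. The genes, lists and tests were chosen with earlier results of these data known. The compounds' short labels were read as kynurenine and CH223191 from the series title.

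Genes were filtered with filterByExpr of edgeR 4.0.16 (minimum count 10; limma 3.58.1, R 4.3.3), which kept 13619, and TMM factors ran between 0.988 and 1.02. All 12 libraries entered the quasi-likelihood fit, whose coefficients were the group means. P-values were Benjamini-Hochberg adjusted over all genes tested, with calls under 0.05. Each p beside a member comes from this fit, except where an alternative is named with it. Intervals use the standard error |log2 fold change| divided by the square root of F. The procedure was also run on simulated counts that held no outlying library, so that run does not show how it handles one. CPM were taken on TMM-scaled totals. For correlations they were logged (log2) after adding a prior count of 2. Exon lengths came from GENCODE 44.

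Named genes were the 7 members, the 4 of smallest joint p per list (mean of at least 1 CPM) and the 3 most alike per member. Alternatives were DESeq2 1.42.0, RLE factors, library totals alone, a fit without the other 2 groups, replicate number as a block, no filter or one of 5 CPM (3 libraries), removal of GC and length trends (92.0% of tested genes had a model) and each library left out.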

Additional observations from a re-analysis of the deposited data

How the results depend on the processing

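Of 17 member differences called, 13 kept their direction and call under each alternative that gave a value, and the other 4 were JUN with TCDD over DMSO, kynurenine and CH223191 and JUNB with TCDD over CH223191. The replicate block left the counts of members at 2, 0, 4, 2, 5 and 4 in TCDD, kynurenine and CH223191 over DMSO, TCDD over kynurenine, TCDD over CH223191 and kynurenine over CH223191, and of all genes at 1537 with TCDD over DMSO. It changed no member's call. The labels give the libraries of a group only a number. Their deviations from group means correlated at -0.055 to 0.037 in 18 pairs of the same number and at -0.053 to 0.083 in 36 others. With 3 libraries a group, these values cannot show whether libraries of the same number were handled together. With 1 library left out, the members called numbered 1 to 2 with TCDD over DMSO, 1 to 2 with TCDD over kynurenine and 3 to 5 with TCDD over CH223191, and all genes called 805 to 1912 with TCDD over DMSO and 576 to 1323 with TCDD over kynurenine. The counts fell by more than 1.5 times with TCDD over DMSO without TCDD replicate 3 (805), DMSO replicate 1 (851) or DMSO replicate 3 (1020), against 1599, and with TCDD over kynurenine without TCDD replicate 3 (576) or kynurenine replicate 1 (658), against 1252. Removing GC and length trends changed which genes were called. It gave 1251 with TCDD over DMSO, of which 954 were among the 1599. With TCDD over kynurenine it gave 1126, of which 787 were among the 1252. With kynurenine over DMSO 65 genes passed with no low-count filter and 26 with only the 2 groups compared, in place of 40. The cause was not tested.

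Values that turned sign had not passed in any setting. Without 1 library at a time, the log2 fold changes ranged with TCDD over DMSO from -0.033 to 0.10 for FOS, -0.028 to 0.058 for JUNB and -0.016 to 0.034 for JUND, with kynurenine over DMSO from -0.10 to 0.044 for FOS, -0.049 to 0.054 for FOSL1 and -0.0042 to 0.026 for JUN, and with CH223191 over DMSO from -0.026 to 0.20 for FOSB and -0.014 to 0.052 for JUND. With TCDD over kynurenine they ranged from -0.016 to 0.14 for FOS and -0.20 to 0.20 for FOSB, and with TCDD over CH223191 from -0.026 to 0.38 for FOSB and -0.041 to 0.028 for JUND, which was 0.084 with GC and length trends removed. DESeq2 gave no adjusted p for FOSB in 3 comparisons. With 17 to 34 reads a library, depth limits what FOSB can show, and to a lesser degree FOS.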
